A study of Mus musculus with 6 samples.

Results

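The spots with the strongest hypothalamic transcript signature were examined in spatial RNA sequencing of mouse brain sections. The Visium assay captures RNA on a slide printed with barcoded spots, and each captured molecule is counted once by its unique molecular identifier (UMI). A spot is a small region in which the RNA of neighbouring cells, whole or in part and often of unlike type, is mixed. The sections were frozen, coronal and 16 micron thick, from male mice of the inbred C57BL/6J strain aged 6 months (young), 18 months (middle) or 21 months (old). No treatment or transgene is named for any group. Each age had 2 sections. The labels give 2 males per age without tying sections to animals; each section was taken as 1 animal, and if that is wrong the p-values cover only the spread between sections. Slide 1 held young 1, young 2, middle 1 and old 1, and slide 2 held middle 2 and old 2 with no young section. Members were selected on measured levels: they were the 90 spots of each section with the highest summed score, ln(1 + UMIs per 10000), of Dlk1, Resp18, Peg10, Otp and Irs4. This gave 540 of 16741 spots with at least 500 UMIs. Levels are counts per 1000000 UMIs (CPM) of the summed members of a section, and values in a row follow the order young 1, young 2, middle 1, middle 2, old 1, old 2.

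The hypothalamus lies at the base of the brain around the third ventricle and controls hormone release from the pituitary, feeding, sleep, water balance and body temperature. Its neurons fall into nuclei that are told apart by the peptides they make, such as vasopressin and oxytocin in the paraventricular and supraoptic nuclei, orexin and melanin-concentrating hormone in the lateral area, and proopiomelanocortin and agouti-related peptide in the arcuate nucleus. Peptide precursors are cut, amidated and packed into dense core vesicles before release.

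The 5 genes that chose the members describe the selection and are no finding. Otp, a homeobox factor needed for neuroendocrine neurons, averaged 111.4 ± 58.7 CPM in members (SD, n = 6 sections) and 1.68 ± 0.391 CPM in the other spots. Dlk1, an imprinted membrane protein gene, was at 169.8 CPM in young 1, 309.8 in young 2, 238.5 in middle 1, 313.5 in middle 2, 341.2 in old 1 and 269.9 in old 2. Resp18, a gene of the secretory pathway in endocrine cells, was detected in all 90 members of every section, but also in 97.8% to 100% of spots chosen for cortical markers. Irs4, an adaptor downstream of insulin and related receptors, averaged 101.0 ± 51.5 CPM in members, and Peg10, an imprinted gene derived from a retrotransposon, 69.8 ± 27.8 CPM. Between 17 (old 2) and 48 (old 1) of the 90 members of a section held a UMI of all 5 genes, so most members of 5 sections met the rule with fewer. In the mm10 annotation these genes lie apart: Otp on chromosome 13 (94875602 to 94885130), Dlk1 on chromosome 12 (109452823 to 109463336), Irs4 on chromosome X (141710998 to 141725263), Resp18 on chromosome 1 (75272199 to 75278415) and Peg10 on chromosome 6 (4747306 to 4760517).

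The rule set a rank and not a level, and the score at the edge differed between sections. The last member of young 1 scored 4.06 and the first spot outside it 4.03, while these were 5.40 and 5.37 in middle 2. The lowest member of middle 2 thus scored above the median member of young 1 (4.64), young 2 (5.15) and middle 1 (5.01). The same 90-spot selection with markers of the thalamus or the cortex shared 0 spots with the members in any section. Selection with medial amygdala markers shared 6 to 9 spots in 5 sections and 20 in young 2. Without Resp18 and Peg10 in the score, 72 to 80 of the 90 members were selected again. Spot barcodes mark positions on the array and recur between slides (1919 occurred in all 6 sections), so a shared barcode is not a shared spot.

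**Figure D1:**
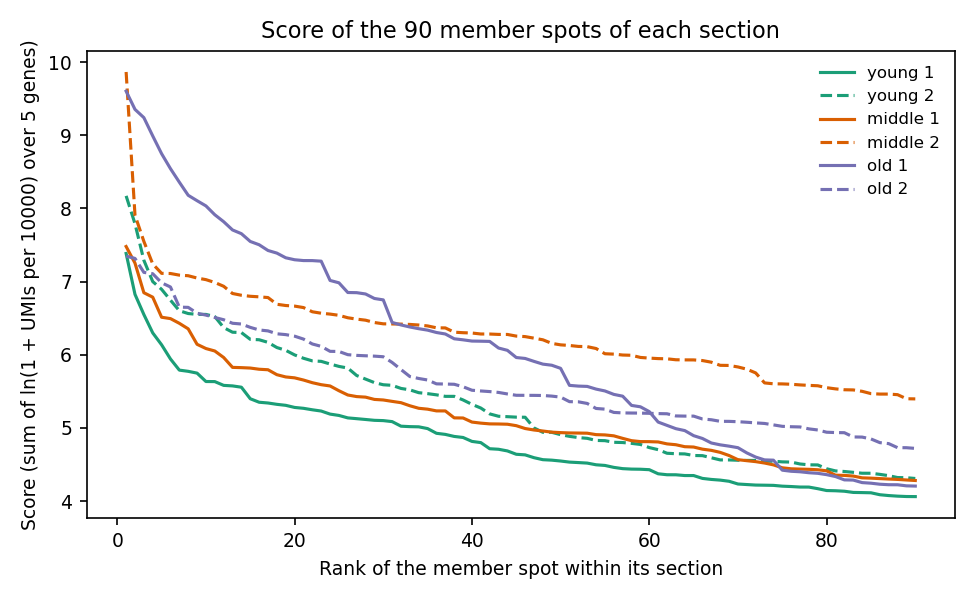
Score of each of the 90 members against its rank, one line per section (solid, replicate 1; dashed, replicate 2; colours, age group). The score at rank 90 lies between 4.06 in young 1 and 5.40 in middle 2, and the old 1 line falls most steeply, from 9.60 to 4.20.

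Members of a section summed to 1363469 to 2066375 UMIs, 2.01% to 2.99% of its total. The median member held 13942 to 24356 UMIs, fewer than the other spots of the same section except in old 1, where the median was 24356 against 21705. Shallow spots could enter on few UMIs. In old 1, members of 963 and 871 UMIs had 1 UMI of Dlk1 each, 4 and 3 of Resp18, and none of the other rule genes. Mitochondrially encoded transcripts made up 9.16% to 13.8% of member UMIs and were lower than in the other spots of every section.

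The sections differed in the markers of hypothalamic nuclei, and this touches every comparison that follows. Avp, the vasopressin gene, was at 4627 CPM in young 1, 25.99 in young 2, 2439 in middle 1, 3.103 in middle 2, 5567 in old 1 and 2.20 in old 2. Oxt, the oxytocin gene, was high in the same 3 sections, with 2380, 3.18, 469.6, 3.72, 15036 and 2.93 CPM. Pmch, which encodes melanin-concentrating hormone, was at 6.48, 3522, 5634, 6311, 2.42 and 7193 CPM in the same order. Young 1 and old 1 were therefore rich in Avp and Oxt and nearly without Pmch, young 2, middle 2 and old 2 were the reverse, and middle 1 was high in all 3.

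Hcrt, the orexin precursor, had the pattern of Pmch, with 9.72, 2774, 4958, 4236, 1.45 and 2158 CPM. Within a section these transcripts sat in few spots. In young 1 the 5 richest members held 73.4% of all member UMIs of Avp, and the median member had 2 UMIs. The 5 richest members of old 2 held 96.3% of its Hcrt. Members of young 2 held 87.1% of the Hcrt UMIs of the whole section, and members of old 1 held 87.6% of its Oxt and 79.6% of its Avp. Pmch was spread further beyond the members, which held at most 46.4% of its UMIs (young 2) and 14.5% in middle 2.

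The share of members with a UMI gave the same picture after each spot was thinned to 10000 UMIs, which left out 4 to 16 shallower members per section. Avp was then found in 69.3% of members of young 1 (exact binomial 95% interval 57.6% to 79.5%, counting error only) and in 93.4% of old 1, against 76.7% and 95.6% before thinning. Of the other sections, middle 1 had 61.6% and the other three 0% to 2.33%. In spots chosen for cortical markers, which had a median of 34170 to 47870 UMIs and are not known to make Avp, thinned shares ran from 0% to 7.95%. The shares of the 3 low sections lay within that range, which pools sections rich and poor in Avp. They were not set against the cortical spots of their own section. In young 2, 1 member held 48 of the 49 member UMIs of Avp.

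Other genes also varied between sections, and not always along with these peptides. Six3, a forebrain homeobox gene, was at 26.6, 27.3 and 47.9 CPM in replicate 1 of young, middle and old, and at 4.77, 37.9 and 8.80 CPM in replicate 2. Bsx, a homeobox gene of feeding-related neurons, was at 24.4, 26.1 and 26.4 CPM in replicate 2 of each age and at most 3.03 CPM in replicate 1. Hdc, the histamine-forming enzyme of tuberomammillary neurons, was at 37.1, 37.2 and 60.9 CPM in replicate 2, against 0, 0.607 and 11.1 CPM in replicate 1.

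Of 28 hypothalamic transcription factor genes, 14 reached a mean of 10 CPM in members or other spots, and 9 of these had a mean log2 ratio of members to other spots over 1, as had 3.77% of all genes at that level. Sim1, which specifies paraventricular neurons, was at 22.7, 15.4, 7.89, 4.97, 36.3 and 8.80 CPM and at most 0.762 CPM in the other spots. Nkx2-1, which patterns the basal hypothalamus, was at 18.0, 31.7 and 20.5 CPM in replicate 2 of each age and at 1.297, 18.8 and 0 CPM in replicate 1. Fezf1, a ventromedial nucleus gene, was instead higher in replicate 1, with 36.3, 41.9 and 17.4 CPM against 1.59, 8.07 and 0 CPM. Meis2 and Zic1, which are also active in thalamus and striatum, were lower in the members than in the other spots of all 6 sections.

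Some genes of the arcuate nucleus were highest in the middle-aged sections, and most of these in middle 2. Cartpt, the precursor of the CART peptide, was at 114.1 CPM in young 1, 288.0 in young 2, 858.6 in middle 1, 2542 in middle 2, 191.6 in old 1 and 693.1 in old 2. Like Pmch of the lateral area, it was lowest in young 1 and old 1. Pomc was highest in middle 1 (263.3 CPM) and middle 2 (124.1 CPM) and at most 55.8 CPM elsewhere. Agrp reached 80.1 CPM in middle 2 and at most 2.93 CPM in any other section, with 0 UMIs in middle 1. Ghrh, for growth hormone-releasing hormone, and Gal, for galanin, were also highest in middle 2, at 131.0 and 425.2 CPM. Npy, which arcuate feeding neurons share with cortical interneurons, was at 244.6 CPM in middle 2 and 31.5 to 44.1 CPM in the other sections, where it was below the level of the other spots. Tac2, also of the arcuate list, did not set the middle sections apart, with 44, 146, 99, 151, 34 and 120 raw UMIs in the summed members. Kiss1 of that list had 2 UMIs in middle 2 and 0 elsewhere. Of 7 pituitary genes, Pomc alone reached 10 CPM.

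Taking all peptide genes, 28 of 37 reached a mean of 10 CPM in members or other spots. Of these 28, 18 had a mean log2 ratio of members to other spots over 1, against 3.77% of all genes at that level. Some varied less between sections. Pnoc, the nociceptin precursor, was at 35.7, 61.0, 37.6, 45.3, 52.3 and 41.1 CPM, and Nucb2, the nesfatin precursor, at 15.4 to 30.4 CPM, each above the other spots of every section. Cck and Vip, peptides of cortical neurons, were lower in the members of all 6 sections (mean log2 ratios -3.29 and -2.66).

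**Figure D2:**
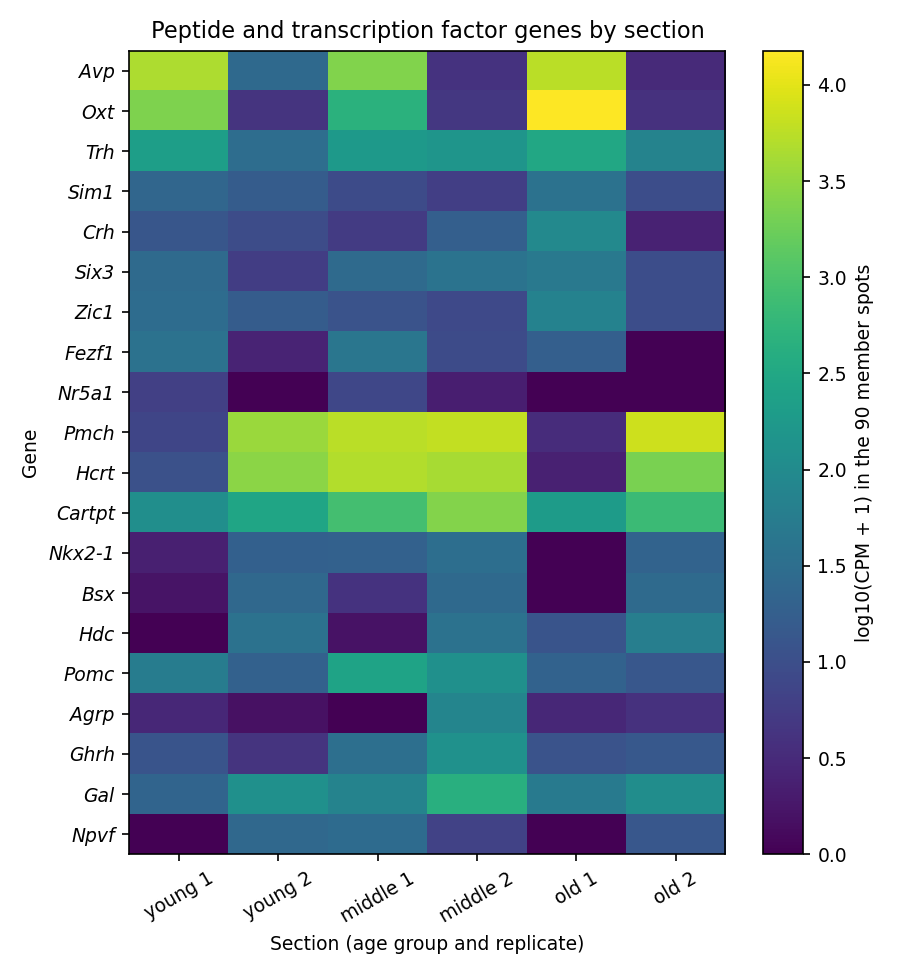
Level of 20 peptide, enzyme and transcription factor genes in the summed members of each section, as log10(CPM + 1) on the colour scale. Avp and Oxt are bright in young 1, middle 1 and old 1, Pmch and Hcrt in young 2, middle 1, middle 2 and old 2, and Agrp only in middle 2 (80.1 CPM).

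Against the other spots of the section, genes that the rule did not use were also much higher in the members. These ratios describe the selection and were not tested. Of 10115 genes with a mean of 10 CPM or more in members or other spots, 381 (3.77%) had a mean log2 ratio over 1 and 615 (6.08%) one below -1. Among genes at 20 CPM or more in the members of every section, Arhgap36, which encodes an inhibitor of protein kinase A, had the highest mean log2 ratio, 4.51 ± 0.54 (SD, n = 6 sections). Its members' levels were 59.0, 89.6, 78.3, 142.1, 42.6 and 112.2 CPM, against 1.89 to 6.75 CPM in the other spots, so no section overlapped. Trh, the thyrotropin-releasing hormone gene (mean log2 ratio 4.35), and Gal (4.22) followed.

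Other leading genes followed. Gabrq, the theta subunit of the GABA-A receptor, had a mean log2 ratio of 3.98, and Gpr101, an orphan receptor, one of 3.14. Gpx3, a secreted glutathione peroxidase, was at 182.2, 216.4, 272.4, 528.2, 346.0 and 319.8 CPM in members, with a mean log2 ratio of 3.86. Ngb, or neuroglobin, an oxygen-binding protein of neurons, was at 95.3 to 120.5 CPM in 5 sections and highest in middle 2, with a mean log2 ratio of 3.17 ± 0.24. In the 90 spots of each section chosen for medial amygdala markers, Sncg averaged 112.2 ± 41.5 CPM, above the members' 94.3 ± 27.3 CPM (SD, n = 6). Gpr101 averaged 63.6 ± 17.5 CPM there and 51.4 ± 22.4 CPM in members. Both differences were smaller than these spreads. Gpr101 is itself among the markers that chose those spots, so its level there describes that selection. The other 18 genes had lower means there than in members. The other genes among the 20 were Magel2, AW551984, Cartpt, Baiap3, Igsf1, Lbhd2, Ecel1, Itih3, Pcbd1, Sncg, Minar2, Vat1 and Dnah1, at mean log2 ratios of 2.45 to 3.82.

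**Figure D3:**
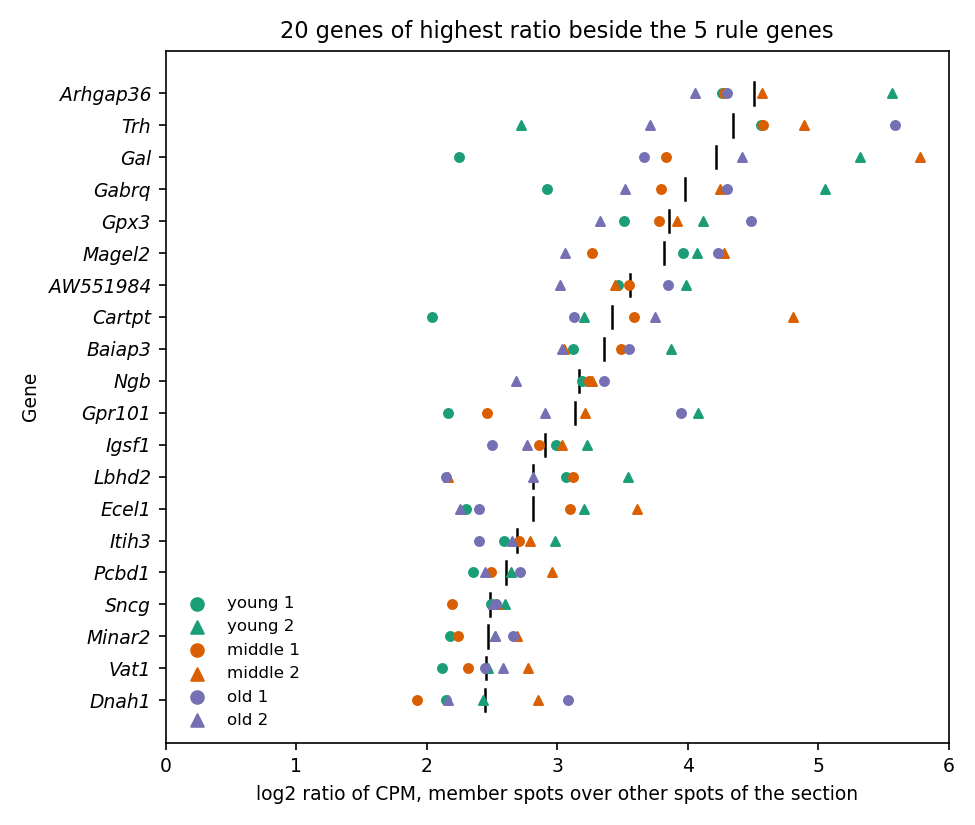
log2 ratio of CPM in members over other spots for the 20 genes of highest mean ratio outside the rule. Each point is a section (colour, age; circle, replicate 1; triangle, replicate 2) and the bar is the mean. All points lie above 1.9, and Gal and Trh spread most between sections.

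Dense core vesicle and peptide processing genes were raised unevenly. Of 20 genes of this list at 10 CPM or more, 15 were higher in the members of all 6 sections, where 26.4% of all genes were, and 3 were lower in all 6. Their median log2 ratio was 0.61, beside 0.02 for all genes. Baiap3, for a protein of dense core vesicle traffic, was at 210.7 to 320.3 CPM in members and 17.0 to 38.7 CPM elsewhere. Scg2, a granin stored in these vesicles, was at 403.2 CPM in young 1 and 734.1 to 962.9 CPM in the other five sections, a mean log2 ratio of 2.04. The prohormone convertase genes split, with Pcsk1 higher (mean log2 ratio 1.40) and Pcsk2 lower (-0.76) in the members of all 6 sections. Cpe, the carboxypeptidase that trims cut peptides, was no higher (-0.23).

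Imprinted genes, which are expressed from 1 parental allele and of which the rule used Dlk1 and Peg10, made up another raised group. Of 33 others at 10 CPM or more, 24 were higher in the members of all 6 sections, where 26.4% of all genes were. A mean log2 ratio over 1 was found for 13 of them, against 3.77% of all genes. Nnat, for neuronatin of the endoplasmic reticulum, was at 639.9, 1054, 814.3, 1196, 1412 and 1206 CPM in members and 184.1 to 255.6 CPM elsewhere. Peg3, a zinc finger gene, was the most even of those named here, with 468.4 to 523.6 CPM in members. The Prader-Willi region genes Ndn and Magel2 had mean log2 ratios of 2.08 and 3.82, while Snrpn of the same region was at 0.02. Igf2, an imprinted growth factor made by the meninges, was lower in members (-1.44).

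Hormone and feeding receptors were split. Of 25 at 10 CPM or more, 8 (32%) had a mean log2 ratio over 1, against 3.77% of all genes. In the members of all 6 sections, 9 were higher and 7 lower, where 26.4% and 24.2% of all genes were. The median log2 ratio was 0.06, beside 0.02 for all genes. Calcr, the calcitonin receptor, was high but varied, with 8.43, 57.3, 12.7, 39.1, 55.7 and 45.5 CPM in members and at most 1.25 CPM in the other spots. Glp1r, the receptor of glucagon-like peptide 1, had a mean log2 ratio of 3.56 at 5.83 to 18.0 CPM in members. The growth hormone receptor gene Ghr (mean log2 ratio 1.52) and the prolactin receptor gene Prlr (1.56) were higher in the members of all 6 sections, the latter at 11.02, 22.8, 12.7, 23.0, 11.1 and 19.8 CPM. Insr, the insulin receptor, was at 17.5 to 26.1 CPM in members and 18.8 to 22.02 CPM elsewhere. The receptors for glucocorticoids (Nr3c1, -0.47) and thyroid hormone (Thra, 0.03) were not higher in the members.

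Among transmitter genes, members held both GABA and glutamate markers. Slc32a1, the vesicular GABA transporter, was at 139.3 to 277.8 CPM in members, and Slc17a6, the glutamate transporter of subcortical neurons, at 95.3 to 184.8 CPM. Gad2, a GABA-forming enzyme, was at 138.6 CPM in old 2 and 263.8 to 352.8 CPM in the others, while Gad1 was not higher in members (-0.12). Slc17a7, the transporter of cortical glutamate neurons, was at 8.80 to 26.5 CPM in members and 498.6 to 615.2 CPM elsewhere. All 5 cortical markers and all 5 thalamic markers were below a mean log2 ratio of -1, and the members' summed cortical markers (44.7 to 89.1 CPM) were far below those of the other spots (1019 to 1197 CPM). Ttr, the choroid plexus transthyretin gene, had the lowest mean log2 ratio (-5.68) of genes at 20 CPM or more in the other spots of every section. Immediate early genes, which neurons induce on activity, were lower too: 11 of 13 had a mean log2 ratio below -1, against 6.08% of all genes.

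Markers of other cell types were not even between the members of the sections. The 7 ependymal markers, which line the ventricle, summed to 348.4 CPM in old 1 and 24.6 to 110.5 CPM in the other sections. Oligodendrocyte markers summed to 2350 CPM in old 1 and 3202 to 5525 CPM in the others, below the other spots of every section (6620 to 7694 CPM). Microglial markers summed to 553.6 and 453.0 CPM in young, 679.6 and 795.7 in middle and 634.0 and 707.8 in old members, with no overlap between young and the later ages. In summed spots, fewer cells of a type and less RNA per cell cannot be told apart.

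The age comparison within the members asked which transcripts differ between 6, 18 and 21 months. In old against young members, 3 of 11430 genes tested were called by edgeR at an adjusted p below 0.05 (0.0262%), and all 3 were lower in old. The CPM of old and young did not overlap for 36.4% of all genes, so a lack of overlap is common with 2 sections each. The 3 genes were Hspa1b and Hspa1a, the stress-inducible chaperones of the Hsp70 family, and Sgk1, a kinase induced by glucocorticoids and by stress. Hspa1a was at 56.4 and 61.5 CPM in young 1 and young 2, at 18.8 and 16.1 CPM in middle 1 and middle 2, and at 19.4 and 13.9 CPM in old 1 and old 2. Hspa1b was at 44.7 and 37.1 CPM in young, 4.85 and 8.07 CPM in middle and 8.23 and 6.60 CPM in old. For both genes the young sections were high and the middle and old sections low, with no overlap. A UMI of Hspa1a was present in 56 and 62 of the 90 members of the young sections, 22 and 21 of the middle and 30 and 17 of the old. After thinning to 10000 UMIs these shares were 49.3% and 40.7%, 12.8% and 11.6%, and 22.4% and 10.8%.

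On the log2 scale, Hspa1b was lower in old than in young by -2.48 ± 0.31 (SE, n = 2 sections per age, edgeR adjusted p = 0.0015) and Hspa1a by -1.84 ± 0.23 (edgeR adjusted p = 0.0015). Sgk1 was at 98.5 and 100.8 CPM in young, 34.0 and 37.2 CPM in middle and 26.6 and 48.4 CPM in old. It too did not overlap between young and old, with a log2 change of -1.51 ± 0.22 (edgeR adjusted p = 0.0111). No gene was called without young 1, where Hspa1b had an edgeR adjusted p of 0.0907, Hspa1a 0.0642 and Sgk1 0.236. Hspa1a (0.0557) and Sgk1 (0.275) were also lost without young 2, and Sgk1 without old 1 (0.142). With the 45 highest-scoring spots of each section as members no gene was called either (edgeR adjusted p of 0.165, 0.453 and 0.531). Of the alternatives run, Hspa1b was called in 14 of 16, Hspa1a in 14 of 17 and Sgk1 in 13 of 17. The count was 6 without old 1, 14 without middle 2, 16 without middle 1 and 23 without old 2.

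Sgk1 lies on chromosome 10 (mm10, 21882184 to 21999903, plus strand). Hspa1a (34969190 to 34972156) and Hspa1b (34956436 to 34959238) lie near each other on the minus strand of chromosome 17 and are near-identical copies, so the division of reads between them is uncertain. Because they had the lowest adjusted p of this comparison, the bases before their starts are shown, 5′ to 3′ on the gene strand (minus), with a heat shock core motif in capitals (RefSeq, GRCm38.p6).
Hspa1a, chr17:34972157-34972406: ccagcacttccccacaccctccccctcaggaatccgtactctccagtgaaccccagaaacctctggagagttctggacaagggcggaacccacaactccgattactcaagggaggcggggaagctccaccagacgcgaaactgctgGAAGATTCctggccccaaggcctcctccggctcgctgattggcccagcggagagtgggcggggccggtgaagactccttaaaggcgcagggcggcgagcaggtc
Hspa1b, chr17:34959239-34959488: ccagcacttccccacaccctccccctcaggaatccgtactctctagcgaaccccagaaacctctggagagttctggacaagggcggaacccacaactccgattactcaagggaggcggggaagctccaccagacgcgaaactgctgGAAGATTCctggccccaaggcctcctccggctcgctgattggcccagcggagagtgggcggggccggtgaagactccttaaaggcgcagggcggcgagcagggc
The windows of 250 bases were identical at 247 positions (98.8%) and differed by C44T, T47C and T249G (Hspa1a base, position from the 5′ end, Hspa1b base). On both strands, the motif GAANNTTC was found once in each window, starting at -104, and TTCNNGAA was not found. GAANNTTC occurred in 6.69% of 32851 windows of that length before RefSeq gene starts, and either motif in 12.8%. A match describes the letters and is not evidence of binding.

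In middle against young members, 5 of 11430 genes were called (0.0437%), 1 higher (0.00875%) and 4 lower (0.035%). The CPM of middle and young did not overlap for 31.9% of all genes. The young sections are shared with the comparison of old with young, so the values of one are not independent of the other. Hspa1b (log2 change -2.66 ± 0.32, edgeR adjusted p = 0.00133), Hspa1a (-1.76 ± 0.24, 0.00306) and Sgk1 (-1.49 ± 0.22, 0.00996) were lower in middle. Egr1, an immediate early transcription factor on chromosome 18 (34859823 to 34864984), was lower as well, by -1.13 ± 0.17 (edgeR adjusted p = 0.00996), with 99.8 and 102.9 CPM in young, 47.9 and 45.3 in middle and 60.0 and 49.1 in old. In old against young its log2 change was -0.93 ± 0.17 (edgeR adjusted p = 0.0666).

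Ifi27l2a, an interferon-induced gene on chromosome 12 (103442167 to 103443680), was the one gene called higher in middle, with a log2 change of 2.29 ± 0.39 (edgeR adjusted p = 0.0335). It was at 8.43 and 3.18 CPM in young, 27.3 and 28.6 CPM in middle and 6.29 and 9.53 CPM in old. The old sections thus lay near the young ones, and the middle sections apart from both. The other spots of the middle sections held 8.71 and 8.03 CPM. A UMI was present in 27 and 25 of the 90 members of the middle sections and in 6 to 12 of those of any other section. Its edgeR adjusted p was 0.858 without young 2 and 0.115 without middle 2, and 0.145 with slide as a term. It was called in 9 of 16 alternatives and Egr1 in 10 of 17, and both were lost with DESeq2 (adjusted p of 0.389 and 0.138), after thinning and with 45 members. Without middle 2, Sgk1 and Egr1 were also lost (edgeR adjusted p = 0.115 for each). Leaving out young 1 lost Sgk1 (0.113) and Egr1 (0.102), and leaving out young 2 lost Hspa1a (0.0812), Sgk1 (0.217) and Egr1 (0.139). The count was 3 without middle 2, 9 without old 2 and 51 without middle 1. In old against middle, edgeR called 0 of 11430 genes (0%), with 422 at an unadjusted p below 0.05, and DESeq2 called 0 as well. The edgeR count was 3 without old 1, 8 without middle 1, 10 without middle 2 and 18 without old 2. The CPM of old and middle did not overlap for 30% of all genes.

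**Figure D4:**
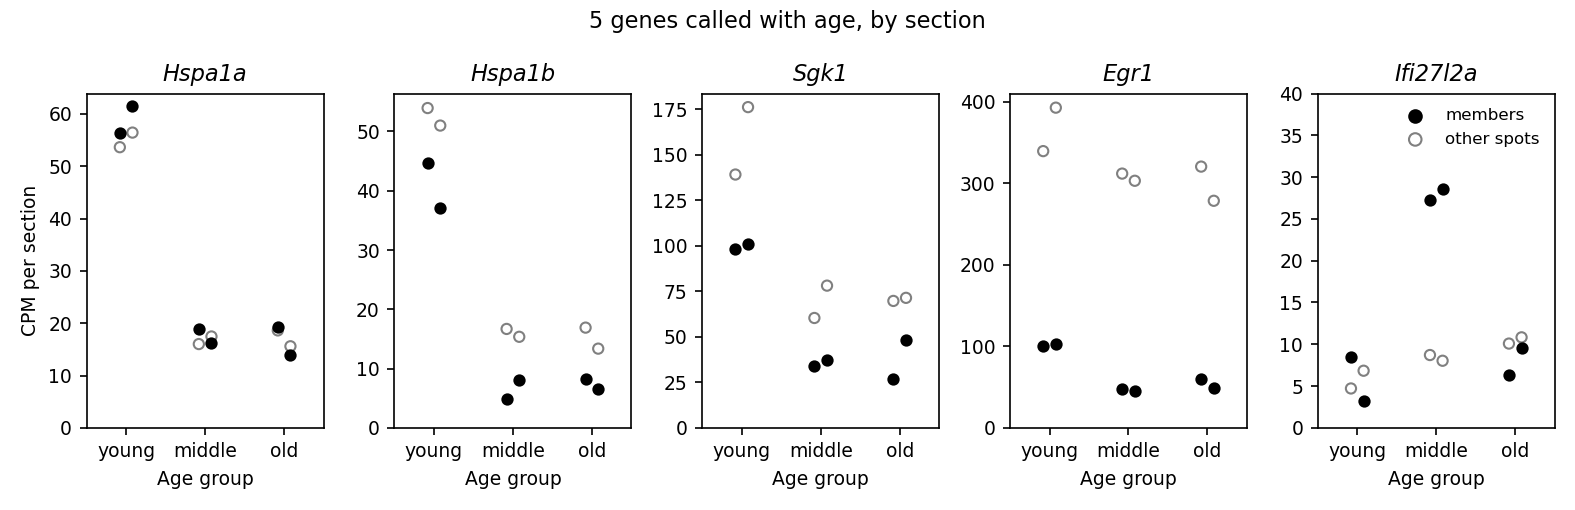
CPM of 5 genes by age group in the members (filled) and in the other spots (open), each point a section, replicate 1 to the left. Hspa1a, Hspa1b and Sgk1 are high in both young sections in either kind of spot, Egr1 is far lower in members than elsewhere at every age, and Ifi27l2a stands out in members of the middle sections (27.3 and 28.6 CPM).

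Slide 1 alone held young with middle and old sections. There, the log2 ratio of old 1 to the mean of the young members was -1.61 for Hspa1a, -2.31 for Hspa1b, -1.90 for Sgk1 and -0.76 for Egr1. For middle 1 it was -1.65, -3.08, -1.55 and -1.08. Slide 2 held no young section, so the same comparison could not be made there.

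Hspa1a, Hspa1b and Sgk1 were also lower with age outside the members. For Egr1 the log2 ratio of old to young mean CPM was -0.29 there, beside an edgeR change of -0.93 in members. In the other spots, the log2 ratio of old to young mean CPM was -1.69 for Hspa1a, -1.79 for Hspa1b and -1.16 for Sgk1, and the test of a difference between members and other spots in the old to young change (the interaction of age with spot set) called none of the 3 (edgeR adjusted p of 1.00, 0.844 and 0.997). Among 17 heat shock genes tested in the members, these were the 2 called. Of the other 15, Dnajb1, an Hsp40 partner of Hsp70, was at 136.1 and 178.8 CPM in young, 71.6 and 99.9 in middle and 104.0 and 75.5 in old (old against young, edgeR adjusted p = 0.405). The constitutive chaperone genes Hspa8 and Hsp90aa1 had log2 changes of -0.09 and -0.15. The list had a median log2 change of -0.18 and 7 genes without overlap below the young sections, where 13.8% of all genes were. In middle against young, 8 of the 17 were (15.3% of all genes).

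Of 8 glucocorticoid response genes tested in old against young, Sgk1 was the one called, and the median log2 change was -0.43. Nfkbia (-0.86 ± 0.27) and Tsc22d3 (-0.48 ± 0.16) lay below the young sections without overlap, while Fkbp5, a widely used readout of glucocorticoid receptor activity, was at 11.02 and 12.2 CPM in young and 12.6 and 15.4 CPM in old (0.20 ± 0.35). None of the 12 immediate early genes was called in old against young. Their median log2 change was -0.63, beside 0.00 for all genes, and 8 lay below the young sections without overlap (13.8% of all genes did). Fos was at 77.8 and 71.6 CPM in young, 43.7 and 54.6 in middle and 48.9 and 41.1 in old.

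For genes of hypothalamic function the age comparison gave no call, and for the peptides the error was wide. With 0.0262% and 0.0437% of all genes called, lists of this size would rarely hold a call, so their lack is not a result about them. None of 26 neuropeptide genes, 20 peptide processing genes, 34 imprinted genes, 34 receptor genes or 19 transcription factor genes tested was called in old against young or in middle against young. For Avp the log2 change from young to old was 0.18 with an SE of 4.16, for Oxt 2.57 with an SE of 4.42, for Pmch 1.01 with 3.67 and for Hcrt -0.39 with 3.34. Sections of 1 age differed widely, as in Oxt of old 1 (15036 CPM) and old 2 (2.93 CPM). The higher Cartpt (3.05 ± 1.13, edgeR adjusted p = 0.997), Ghrh (3.55 ± 1.11, 0.997) and Pomc (2.41 ± 0.77, 0.997) of the middle sections were not called. Penk, the enkephalin precursor, varied less between sections, and its log2 change from young to old was 0.03 ± 0.21.

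Of 20 peptide processing genes, 16 had a log2 change above 0 in old against young, without a call. Of these, 8 lay above the young sections without overlap, where 22.6% of all genes did, and their median log2 change was 0.18. Pcsk1n, an inhibitor of the convertases, was at 2050 and 2244 CPM in young, 2252 and 3094 in middle and 2850 and 2959 in old. The members' lowest scores were 4.06 and 4.31 in young, 4.28 and 5.40 in middle and 4.20 and 4.72 in old. The part of this difference in the selection was not tested.

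Glial and immune genes that are known to rise in the ageing brain were mostly higher in old members, without a call by edgeR. This list was chosen with earlier results of these data known, so its counts are descriptions. The same holds for the heat shock, glucocorticoid response and immediate early lists above. Of 26 tested, 20 lay above the young sections without overlap (22.6% of all genes did), and the median log2 change was 0.63. In middle against young, 18 of 26 did (16.6% of all genes) and the median was 0.67. Ctsz, a lysosomal cathepsin gene, was at 41.5 and 36.6 CPM in young, 51.6 and 78.2 in middle and 76.9 and 58.7 in old (old against young 0.77 ± 0.21, edgeR adjusted p = 0.805). The MHC class I gene H2-K1 was at 26.6 and 32.9 CPM in young, 40.7 and 103.0 in middle and 58.6 and 63.1 in old. Middle 2 was the highest section for H2-K1, B2m, C1qa, C1qb and Serpina3n, the last of these at 333.3 CPM against 23.7 to 111.5 CPM in the others. Slide 2 held middle 2, and the part of the slide in these values was not tested.

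Not every gene of the list moved this way. Gfap, the intermediate filament of reactive astrocytes, was at 60.9 and 18.6 CPM in young, 49.1 and 36.6 in middle and 48.4 and 18.3 in old members, so the groups overlapped, with a log2 change of -0.20 ± 0.85 (edgeR adjusted p = 0.988). In the other spots it was at 75.7 and 76.0 CPM in young and 119.5 and 178.6 CPM in old. The difference of those changes was -1.01 on the log2 scale and was not called (edgeR adjusted p = 1.00).

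C4b, a complement component made by glia and known to rise with brain age, differed between the members and the rest. In members it was at 27.9 and 13.3 CPM in young, 40.7 and 45.9 in middle and 46.9 and 38.9 in old. The other spots of the same sections held 23.3 and 16.6 CPM in young, 43.1 and 43.2 in middle and 77.9 and 105.4 in old. Members and other spots overlapped in young and in middle, and in old both members' values were below both values of the other spots. The interaction of age with spot set was -1.06 ± 0.24 (edgeR adjusted p = 0.0155). The call was lost without young 1 (-0.74, edgeR adjusted p = 1.00), without old 2 (-0.75, 0.294), with slide as a term (-0.94, 0.115) and with DESeq2, and held in 6 of 17 alternatives. C4b lies on chromosome 17 (34728380 to 34743882). It was 1 of 25 genes called among 17339 in this comparison (0.144%) and the one called among these 26 genes.

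**Figure D5:**
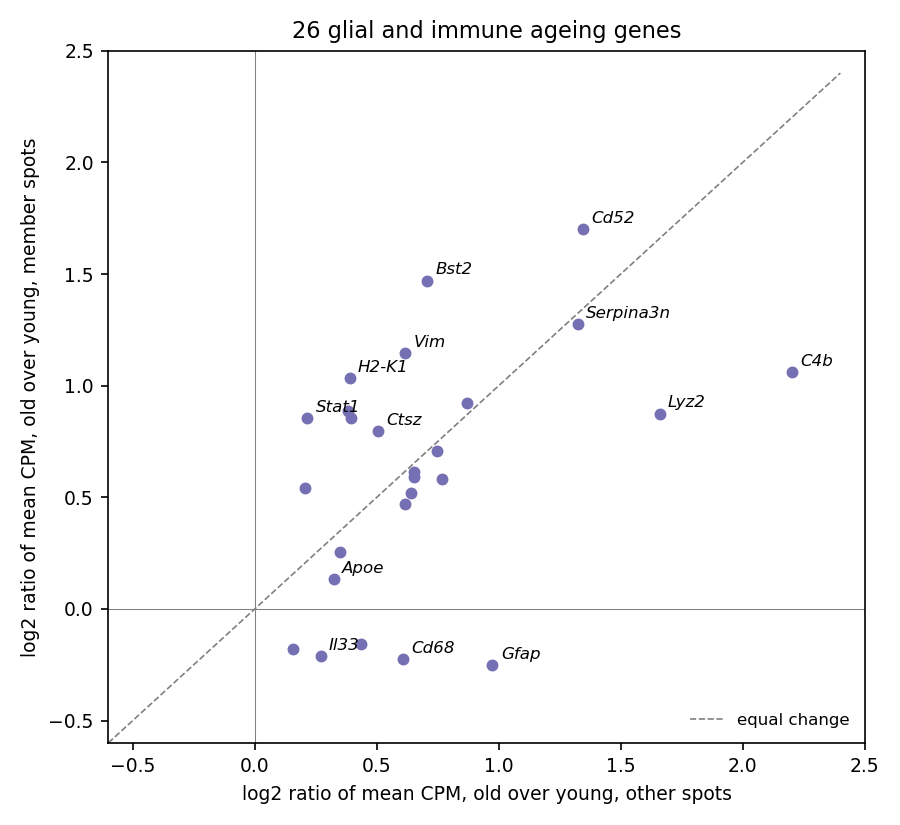
log2 ratio of mean CPM in old over young for 26 glial and immune ageing genes, in the other spots (horizontal) and in the members (vertical), with the line of equal change. C4b lies below the line (1.06 in members, 2.20 elsewhere), and 5 genes, among them Gfap, lie below 0 in members and above 0 elsewhere.

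The interaction called 12 genes with a higher (0.0692%) and 13 with a lower (0.075%) old to young ratio in members than in the other spots. Among those higher was Dynlrb2, a dynein light chain of motile cilia, at 0.648, 5.83, 1.21, 8.69, 35.8 and 8.07 CPM in members in the order of sections used above. It is itself 1 of the 7 ependymal markers, all 7 of which had a log2 change above 0 in old against young members (median 2.39, none called), and the part of ventricular wall in the spots of old 1 was not tested. Without old 1 its interaction was 1.39 (edgeR adjusted p = 1.00). Among those lower were 4 list genes beside C4b, namely Lamp5 of the cortical list, Pvalb of the zona incerta and reticular thalamus list, Mag, a myelin gene (-0.77 ± 0.16, edgeR adjusted p = 0.00553) and the immediate early gene Nr4a1 (-0.90 ± 0.21, 0.0282). All 9 oligodendrocyte markers were below 0 in old against young members (median -0.59, none called), and their sum was lowest in old 1. The number of calls changed widely when single sections were left out. The size of some values, such as that of Dynlrb2, depended on 1 section. DESeq2 called 0 genes, as did edgeR after all sums were thinned to the smallest total.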

How the data were processed

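The data are 6 Visium sections of male C57BL/6J brain, 2 per age, at about the position of section 71 of the Allen atlas. The authors deposited raw UMI counts per gene and spot. The matrices were written by Space Ranger 1.3.1 per the file headers, while the submitters' processing notes name Space Ranger 3.1 and the mm10 build; which version made the counts is not settled here. Images and spot coordinates were not used here, so regions are groups of spots with like transcripts and not outlined anatomy.

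Spots under 500 UMIs were left out, 1 each in middle 2 and old 2. UMIs of the 90 members and of all other spots were summed within each section, and sections are the replicates. Section totals were 60939185 to 77557934 UMIs. CPM are UMIs of a gene per 1000000 of such a sum, and log2 ratios of members to other spots used a prior of 0.5 UMIs. Sums were fitted with edgeR 4.0.16 (R 4.3.3; robust quasi-likelihood, TMM, filterByExpr) on the 6 sections, with a term for age alone, which leaves 3 residual degrees of freedom. The interaction had section as a block. Tests were two-sided, and a call is an adjusted p below 0.05 (Benjamini-Hochberg, over all genes tested). SE is the absolute log2 change divided by the root of F. DESeq2 1.42.0, other normalizations, filters, member numbers and scores, thinning, slide, replicate number and the omission of each section were alternatives.

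Named genes were the rule genes, genes of the 32 lists, called genes with a mean of 10 CPM or more and no overlap (up to 12 per contrast and direction; for the interaction up to 8, overlap allowed), and the 20 highest and 10 lowest ratios at 20 CPM or more. Of the listed genes, 1 is counted but not reported here. The members and lists were chosen with earlier results of these data known. Of 32285 gene identifiers, 32235 matched GENCODE M21. On simulated data with 200 genes changed by 1 or 2 on the log2 scale, the test of old against young (11430 genes) recovered 47.0% and 87.3%, with other genes making up 14.4% and 9.16% of calls. The interaction (17339 genes) recovered 34.8% and 63.8%, with 13.2% and 11.3% other calls.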

Additional observations from a re-analysis of the deposited data

Results flagged for a closer look

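The following genes are listed because their old to young ratio differed between the members and the other spots of the same sections (edgeR interaction, adjusted p below 0.05); each value is the difference of the log2 changes. It was 2.73 for Dynlrb2, 2.33 for Enkur, 1.10 for Fam183b and 1.41 for 1700094D03Rik. Over the alternatives Dynlrb2 ranged from 1.39 to 5.29, Enkur from 1.34 to 3.45 and 1700094D03Rik from 0.37 to 2.00, with the values of Dynlrb2 and 1700094D03Rik lowest without old 1. Dynlrb2 and Enkur belong to motile cilia. In the members of old 1, Enkur was at 25.2 CPM, Fam183b at 96.8 CPM and 1700094D03Rik at 52.7 CPM, in each case the highest of the 6 sections, where ependymal markers were also highest.

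Crhbp, which encodes a binding protein of corticotropin-releasing hormone, had 1.66, and Ret, a receptor of GDNF family ligands, 1.37. Crhbp ranged from 0.69 (without old 2) to 2.42 over the alternatives and was called in 6 of 17, and Ret ranged from 0.53 (without young 2) to 2.35 and was called in 5 of 17. Both were highest in old 2, at 38.9 and 47.7 CPM, against at most 12.7 and 20.8 CPM in the others. Cd24a had 1.29 and the receptor phosphatase gene Ptprk 1.03. Ptprk was at 20.1 and 24.9 CPM in young members and 45.01 and 37.4 CPM in old members.

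The lower values were -1.44 for Syt2, a synaptic vesicle calcium sensor, -1.21 for Itpka, -1.19 for Tmem88b, -1.15 for Lamp5, -1.14 for Litaf, -1.06 for C4b, -1.06 for Ddn and -1.01 for Pvalb, the parvalbumin gene. Itpka, Lamp5 and Ddn are abundant in cortex and were at most 44.0 CPM in the members of any section. The summed cortical markers of the members were also lowest in the old sections (46.0 and 44.7 CPM against 88.2 and 89.1 CPM in young). Lamp5 is itself part of that sum, at 30.5 and 35.5 CPM in young and 10.6 and 14.7 CPM in old members. Pvalb was at 119.9 CPM in young 1 and 30.5 to 54.0 CPM in the others. Syt2 was at 2.90 CPM in old 1 and 16.1 to 27.9 CPM in the others. Over the alternatives Syt2 ranged from -3.10 (without old 2) to -0.61 (without old 1), Itpka from -1.69 to -0.39, Lamp5 from -1.35 to -0.44, Pvalb from -1.41 to -0.49 and Tmem88b from -1.73 to -0.58. Each of the 16 genes was called in 5 to 11 of its 16 or 17 alternatives. None of these values was called by DESeq2, and their dependence on cell makeup was not tested.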

How the results depend on the processing

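No called gene that was followed through the alternatives changed direction. Mag and Nr4a1, though called in the interaction, and the other listed genes were not followed through them. For old against young (3 genes), the count was 71 without a filter on low counts, 0 with 45 members, 11 with the 2 age groups alone and 0 to 23 on leaving out each section. For middle against young (5), it was 3 with DESeq2, 44 without a filter, 3 with slide as a term, 3 thinned, 1 with 45 members and 3 to 51 on leaving out each section. For old against middle (0), it was 36 without a filter, 2 with slide as a term, 1 with 180 members and 0 to 18 on leaving out each section. For the interaction (25), it was 0 with DESeq2, 4 with RLE factors, 0 with at least 10 counts in every sum, 0 thinned, 10 with 45 members, 2 with 180, 9 with a score without Resp18 and Peg10, 10 with the 2 age groups alone and 10 to 160 on leaving out each section. Where 1 section was left out, the lone section of its age is assumed to vary like the others. With the replicate number as a block, the counts were 7, 14, 10 and 38. Same-numbered sections deviated together (r of 0.24 for young with middle, 0.31 for young with old and 0.12 for middle with old over 9609 genes), but with 2 numbers this is a hint from the data and no pairing by design. The cause of these changes was not tested. With 2 sections per age and different nucleus markers in each, the SE of the old to young change of Avp and Pmch (4.16 and 3.67 on the log2 scale) exceeded the change itself.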

Other observations

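Members of 1 section were not alike among themselves. Over the 90 members, Avp and Oxt went together in middle 1 (Spearman's rho 0.78) and old 1 (0.77) and less so in young 1 (0.30). Pmch and Hcrt did so in young 2 (0.60), middle 2 (0.55), middle 1 (0.48) and old 2 (0.34). The spots of a section share a library and their depth, so these values are descriptions.

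Of catecholamine genes, Th, for tyrosine hydroxylase, was at 15.6, 24.4, 21.8, 47.2, 38.7 and 31.5 CPM in members of young 1, young 2, middle 1, middle 2, old 1 and old 2, and at most 3.85 CPM in the other spots. Gnrh1, for gonadotropin-releasing hormone, was at 40.05 CPM in middle 1 and at most 4.97 CPM in any other section. Ucn3, for urocortin 3, was at 46.9 CPM in old 1, 17.5 CPM in young 1, 6.07 CPM in middle 1 and 4.24 CPM in young 2, and had 0 UMIs in middle 2 and old 2.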
